A study of Mus musculus with 8 samples.

Results

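The interferon-gamma (IFNγ) response of tumor-associated macrophages (TAMs) was followed through 9 genes, chosen by name from the 23413 genes in the count table. The genes are the guanylate-binding protein (GBP) genes Gbp2, Gbp3, Gbp5 and Gbp7, the immunity-related GTPase (IRG) genes Irgm1, Igtp and Iigp1, and the chemokine genes Cxcl9 and Cxcl10. All 9 passed the filter on low counts in every comparison, and all 9 had counts in each of the 8 mice. The mice were male C57BL/6, 8 to 10 weeks old, and each carried a subcutaneous tumor of B16F10, a mouse melanoma line. The vehicle DMSO was given to 2 mice, thiostrepton, a thiopeptide antibiotic, was given by intraperitoneal injection (I.P.) to 4, and it was given by injection next to the tumor (paratumor, S.C., labelled IS) to 2, with doses on days 6 and 12. Cells that were CD45+, F4/80+, CD11b+ and Gr-1- were sorted on day 18, and the RNA of each mouse made 1 library. The S.C. dose was 20 mg/kg, while the I.P. dose of these 4 mice and the route used for the DMSO mice are not named in the sources used here. The comparisons ask whether TAMs of mice given thiostrepton by each route differ from those of DMSO mice in this response, and whether the routes differ.

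IFNγ is made mainly by T cells and natural killer (NK) cells. It binds a receptor of the chains IFNGR1 and IFNGR2 on macrophages, and the kinases JAK1 and JAK2 then signal to genes with GAS elements in their promoters. IRF1, a transcription factor induced in this way, binds the interferon-stimulated response element (ISRE). GBPs and IRGs are GTPases that attack the vacuoles of intracellular microbes, and CXCL9 and CXCL10 recruit activated T cells through the receptor CXCR3. Many of these genes, Cxcl10 above all, also respond to type I interferon, through a complex with IRF9 that binds the ISRE.

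The 250 bases before the RefSeq transcript start (build GRCm38.p6) were searched on both strands for the ISRE core GAAANNGAAA, the GAS core TTCNNNGAA and the NF-κB core GGGANNTTCC. A promoter entry was found for 8 of the 9 genes, and Iigp1 had none. The ISRE core was found in 7 of 8 (87.5%), compared with 3.46% of 27025 genes. The GAS core was found in 3 of 8 (37.5%) compared with 8.13%, and the NF-κB core in 2 of 8 (25%) compared with 1.36%. Overlapping ISRE cores in Gbp3 and Irgm1 were counted once per gene. Outside the members, the ISRE core was found in 4 of 6 other IRG genes (66.7%) and 7 of 16 antiviral genes of the type I interferon response (43.8%). It was found in 1 of 9 IFNγ signalling genes (11.1%) and 1 of 14 other IFNγ-induced genes (7.14%). None of the cores was found in the window of Cxcl9, which says only that these letters are not in those 250 bases. The stretches that hold the ISRE cores are shown because they are what most of these genes have in common, with the core in capitals. All read 5′ to 3′ on the strand of the gene, so a core on the other strand appears as its reverse complement.
Gbp2 (chr3:142620594-142620623, + strand): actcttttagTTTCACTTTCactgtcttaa
Gbp3 (chr3:142559992-142560021, + strand): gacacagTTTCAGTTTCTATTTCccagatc
Gbp5 (chr3:142496759-142496788, + strand): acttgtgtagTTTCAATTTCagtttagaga
Gbp7 (chr3:142530273-142530302, + strand): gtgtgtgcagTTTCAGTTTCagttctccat
Irgm1 (chr11:48871428-48871457, - strand): gtttcaaGAAATAGAAACCGAAActgattc
Cxcl10 (chr5:92349083-92349112, - strand): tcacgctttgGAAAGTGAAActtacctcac
In the stretch of Igtp (chr11:58199507-58199536, + strand) a GAS core stands before the ISRE core, and both are in capitals.
Igtp: ccatTTCTAGGAActGAAACTGAAAgctgt
Gbp7 has a pair of GAS cores further upstream (chr3:142530229-142530258, + strand), and Cxcl10 an NF-κB core nearer its start (chr5:92349029-92349058, - strand), again in capitals.
Gbp7 GAS: tTTCCAGGAAaagcagaagcTTCTCAGAAa
Cxcl10 NF-κB: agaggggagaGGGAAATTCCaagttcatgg

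**Figure D1:**
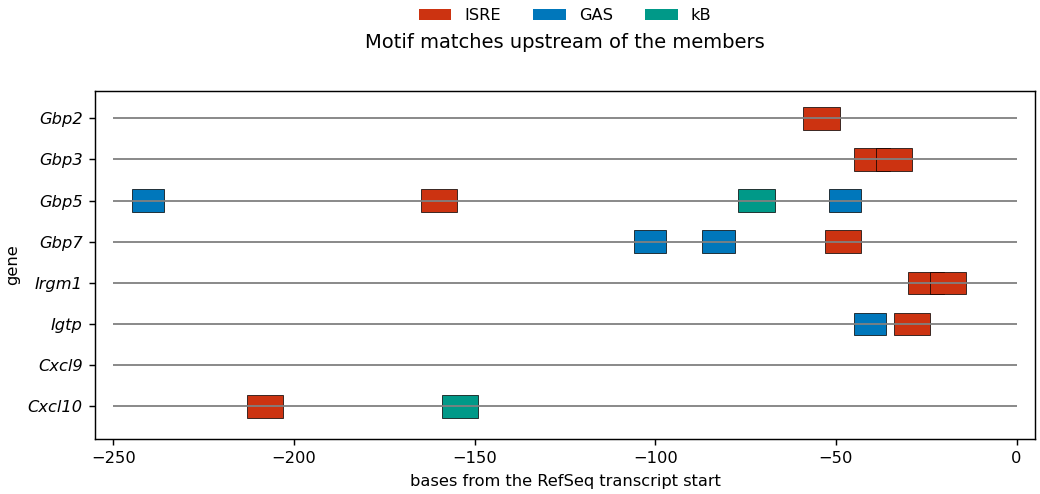
Matches to the ISRE, GAS and NF-κB (kB) cores are drawn as boxes along the 250 bases before the RefSeq transcript start (x axis, bases) of the 8 genes with a promoter entry. Boxes of the ISRE core are present in 7 of the 8 genes, and the line of Cxcl9 is empty.

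The libraries held between 14127506 and 17577466 counts, and 3 counts, taken as a floor, corresponded to between 0.168 and 0.217 CPM (counts relative to the TMM-scaled library size), for counting error only. Replicates are separate mice. Macrophage markers were abundant in every library, with 11 of 11 detected in each mouse and C1qb, a complement subunit of macrophages, between 3818 and 8126 CPM. Melanoma transcripts were present in every library although the sort gated on CD45. The 7 melanoma markers summed to between 458 CPM in I.P. mouse 3 and 2925 CPM in S.C. mouse 1. The 13 T and NK cell markers summed to 27.5 and 9.41 CPM in DMSO mice 1 and 2. They summed to between 2.91 and 21.5 CPM in the I.P. mice, and to 46.1 and 37.1 CPM in S.C. mice 1 and 2. The smallest p that an exact permutation test (two-sided) allows is 0.133 for 4 and 2 mice and 0.333 for 2 and 2 mice, so none could reach 0.05.

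Per kilobase of exon, the mean level over the 8 mice was highest for Cxcl10 (44.7 CPM per kb) and Gbp2 (33.8 CPM per kb). Igtp (21.7), Cxcl9 (20.8), Irgm1 (17.6), Iigp1 (17.5), Gbp3 (14.5) and Gbp7 (10.5 CPM per kb) followed. Gbp5 was lowest with 1.56 CPM per kb. Because Cxcl9 ranged over the mice from 2.17 to 59.7 CPM per kb and Cxcl10 from 13.8 to 89.5 CPM per kb, neighbours in this order were not separated by the spread between mice.

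The GBP genes of this group lie in 1 cluster on chromosome 3 (GRCm38, GENCODE vM21), with Gbp2b between Gbp3 and Gbp2, Gbp5 at 142493978 to 142522344, Gbp7 at 142530342 to 142550149, Gbp3 at 142560026 to 142573209 and Gbp2 at 142620602 to 142638008. Gbp2, the most abundant of them, had 131 and 40.1 CPM in DMSO mice 1 and 2. In I.P. mice 1 to 4 it had 55.3, 14.1, 131 and 29.7 CPM, and in S.C. mice 1 and 2 it had 99.7 and 180.1 CPM. I.P. mouse 3 thus stood level with DMSO mouse 1 and above S.C. mouse 1, while the lowest value was that of I.P. mouse 2. Gbp3 had 66.5 and 22.1 CPM in the DMSO mice, 16.2, 13, 55.6 and 43.3 CPM in the I.P. mice, and 41.1 and 121 CPM in the S.C. mice. S.C. mouse 2 was the highest mouse for Gbp2 and Gbp3, and each group overlapped with the others.

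Gbp5, which in macrophages also promotes inflammasome activation, was the lowest member. It had 13.4 and 5.37 CPM in the DMSO mice, 2.15, 3.0, 18.1 and 10.3 CPM in the I.P. mice, and 10.3 and 20.1 CPM in the S.C. mice. Gbp7 had 114 and 50.1 CPM in the DMSO mice, 36.2, 22.5, 75.3 and 25.1 CPM in the I.P. mice, and 23.3 and 124 CPM in the S.C. mice. For Gbp7 the S.C. mice stood at opposite ends, S.C. mouse 2 being the highest of all 8 and S.C. mouse 1 next to the lowest. Of the 50-base stretches of Gbp7 transcripts, 12.7% also occur in other genes, mostly in the pseudogene Gm43802 that lies within Gbp7, and some in Gbp3. Reads from these stretches may be shared among those genes.

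**Figure D2:**
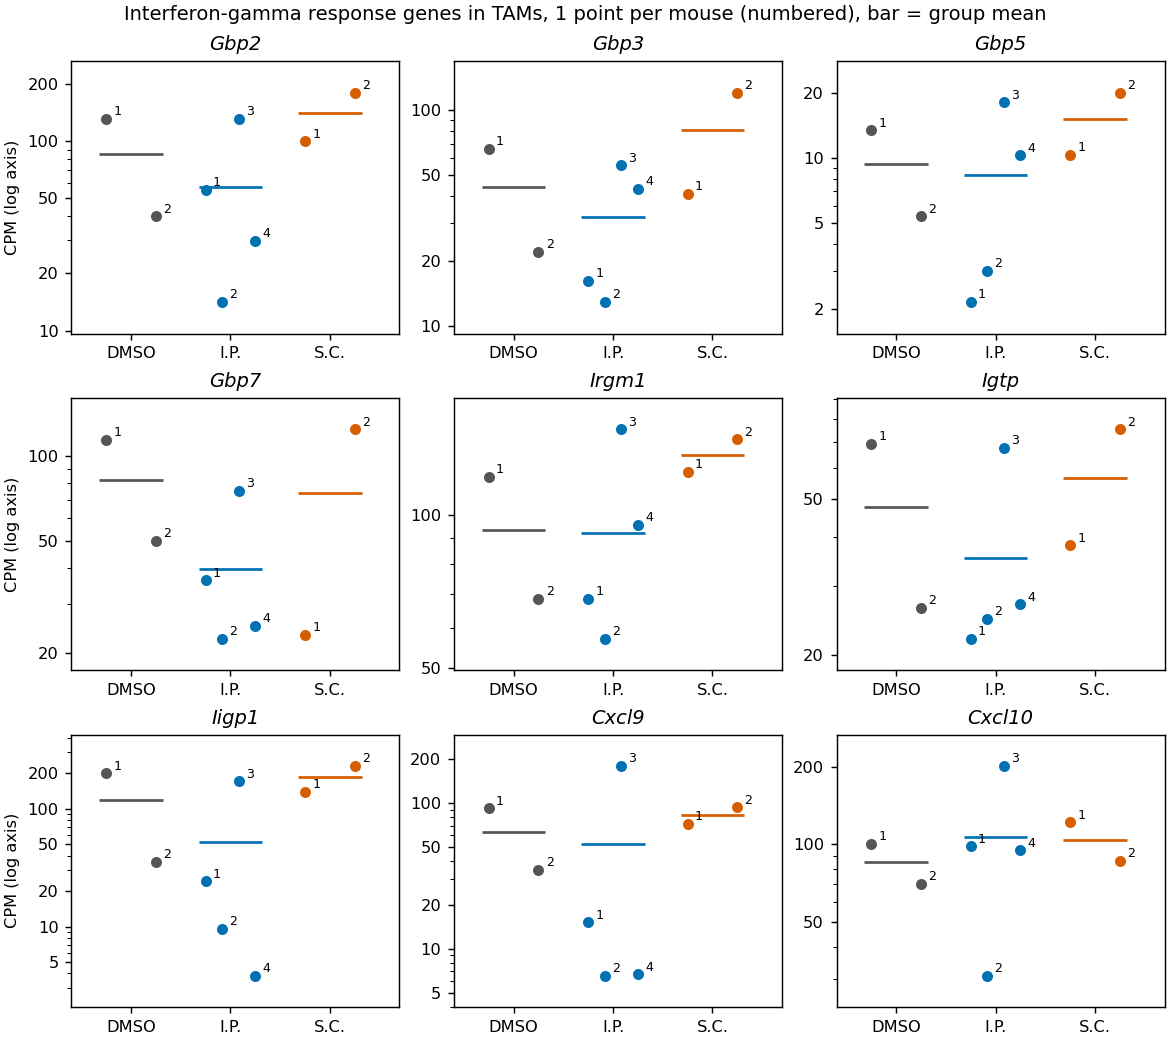
Each panel plots 1 gene in CPM on a log axis, with 1 numbered point per mouse in the DMSO (grey), I.P. (blue) and S.C. (orange) groups and a bar at the group mean; axis ranges differ between panels. I.P. mouse 3 stands far above the other I.P. mice for Iigp1 and Cxcl9, and both S.C. mice are above both DMSO mice only for Irgm1.

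Irgm1, a regulatory IRG that controls the other members of its family, lies on chromosome 11 at 48861968 to 48871683 and varied least. It had 119 and 68.4 CPM in the DMSO mice, 68.5, 57.1, 147 and 95.6 CPM in the I.P. mice, and 121 and 141 CPM in the S.C. mice. Both S.C. mice were above both DMSO mice, and I.P. mouse 3 was above them all. Igtp (Irgm3), also regulatory, lies on chromosome 11 at 58199556 to 58207591. It had 69.3 and 26.4 CPM in the DMSO mice, 22.1, 24.8, 67.7 and 27.0 CPM in the I.P. mice, and 38.2 and 75.4 CPM in the S.C. mice. DMSO mouse 1, I.P. mouse 3 and S.C. mouse 2 formed the upper end for Igtp, and 1 mouse of each group was therefore high. The annotation of Igtp overlaps on the same strand with that of Irgm2, and 11.8% of its 50-base stretches occur in Irgm2, so the division of reads between these genes is uncertain.

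Iigp1 (Irga6), an effector IRG that coats and disrupts vacuoles, showed the widest spread. It had 199 and 35.2 CPM in DMSO mice 1 and 2. In I.P. mice 1 to 4 it had 24.2, 9.54, 171 and 3.84 CPM. In the S.C. mice it had 139 and 230.4 CPM. DMSO mouse 1 was thus 5.66-fold higher than DMSO mouse 2, and I.P. mouse 3 was 44.5-fold higher than I.P. mouse 4, with 3046 and 64 reads. The SD of its log2 CPM within groups was 1.98, above that of 97.3% of 12352 genes. The highest I.P. mouse lay above DMSO mouse 2 and S.C. mouse 1, so no group stood apart.

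The chemokine genes are neighbours on chromosome 5, Cxcl9 at 92321347 to 92328079 and Cxcl10 at 92346638 to 92348889, the latter within Art3 on the opposite strand. Cxcl9, a chemokine induced chiefly by IFNγ, had 91.9 and 35.0 CPM in the DMSO mice. It had 15.2, 6.54, 180 and 6.66 CPM in the I.P. mice, and 71.8 and 93.5 CPM in the S.C. mice. I.P. mouse 3 had the highest value of all 8 mice and the other I.P. mice the lowest values. Within groups the SD of its log2 CPM was 1.80, above that of 95.3% of genes. Cxcl10 had 101 and 70.3 CPM in the DMSO mice, 98.5, 31.0, 202 and 94.8 CPM in the I.P. mice, and 122 and 86.3 CPM in the S.C. mice. It was the member for which S.C. mouse 1 exceeded S.C. mouse 2, and the values of I.P. mice 1 and 4 were close to that of DMSO mouse 1.

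Across the 8 mice the log2 CPM of Cxcl9 and Cxcl10 had a Pearson's r of 0.68, given as a description, and their ratio varied between mice. The ratio of Cxcl9 to Cxcl10 CPM, which is not corrected for length and is compared only between mice, was 0.913 and 0.498 in the DMSO mice. I.P. mice 1 to 4 had ratios of 0.154, 0.211, 0.893 and 0.0703, and S.C. mice 1 and 2 had 0.590 and 1.08. The I.P. mice 1, 2 and 4 had the lowest ratios, and I.P. mouse 3 lay between the DMSO mice.

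In I.P. against DMSO mice, log2 fold changes of the 9 genes lay between -1.15 for Iigp1 (SE 1.26) and 0.32 for Cxcl10 (SE 0.59), and 8 of 9 were negative. Their median was -0.43, compared with 0.02 over the 12174 genes tested. By edgeR's quasi-likelihood test, 0 of 9 had an adjusted p under 0.05 (range 0.980 to 0.995), 0 of 9 an unadjusted P under 0.05, and 0 of 9 met the study's criterion for differentially expressed genes (DEGs), which asks for a 2-fold change and an unadjusted P under 0.05. Over all genes tested these shares were 0%, 3.43% and 2.0%, with 418 genes at an unadjusted P under 0.05. DESeq2 gave 26 genes with an adjusted p under 0.05, none of them a member, and Gbp7 as a DEG. Gbp7 was the member nearest the threshold, with 82.1 ± 45.3 CPM (SD, n = 2) with DMSO and 39.8 ± 24.4 CPM (SD, n = 4) with I.P. thiostrepton, a log2 fold change of -1.04 (SE 0.52, edgeR unadjusted P = 0.0769, adjusted p = 0.980). All 9 intervals (95%) included 0, and those of 5 genes reached past a 2-fold change in both directions, so a 2-fold change either way was within the error for these. None of the 9 separated the groups without overlap, compared with 14.2% of genes tested.

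These values changed with several single mice. Without I.P. mouse 3 the median was -0.97, and 3 of 9 members met the DEG criterion, compared with 361 of 12051 genes tested. The 3 members were Gbp7 (-1.57), Iigp1 (-3.23) and Cxcl9 (-2.76 on the log2 scale), each with an adjusted p of 0.938 in edgeR's test. Without DMSO mouse 1 the median was 0.53 and 8 of 9 log2 fold changes were positive. Without DMSO mouse 2 the median was -0.97. Without I.P. mouse 1 and without I.P. mouse 2 the medians were -0.25 and -0.21, and 4 of 9 log2 fold changes were positive in each case. The range between the DMSO mice was larger than the difference of the mean log2 CPM between I.P. and DMSO mice in 8 of 9 genes, the exception being Cxcl9. Whether fewer expressing cells or less RNA per cell lay behind a low value cannot be told apart in these bulk libraries.

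In S.C. against DMSO mice, 8 of 9 log2 fold changes were positive, and they lay between -0.15 for Gbp7 (SE 0.82) and 0.87 for Gbp3 (SE 0.72). Their median was 0.49, compared with 0.02 over 11680 genes. By edgeR's quasi-likelihood test, 0 of 9 had an adjusted p under 0.05 (all 0.9999), 0 of 9 an unadjusted P under 0.05 and 0 of 9 were DEGs, and over all genes tested these shares were 0%, 5.41% and 5.06%. Unadjusted P was under 0.05 for 632 genes, and DESeq2 gave 107 genes with an adjusted p under 0.05, none of them a member. Both S.C. mice were above both DMSO mice for 1 of 9 genes, Irgm1, with 131 ± 13.7 CPM (SD, n = 2) against 93.6 ± 35.5 CPM (SD, n = 2) and a log2 fold change of 0.49 (SE 0.38). No overlap in either direction was found for 34.4% of genes tested. All 9 intervals included 0, and 4 reached past a 2-fold change in both directions.

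The S.C. mice differed from each other on the GBP genes. Without S.C. mouse 1, with a spread estimated from the DMSO mice alone, Gbp3 had a log2 fold change of 1.44 and an edgeR adjusted p of 0.0484. Without S.C. mouse 2, Gbp3 had -0.13, and Gbp7 had -1.84 with an edgeR adjusted p of 0.0127. In each of these fits the lone S.C. mouse is assumed to vary like the DMSO mice, and 1979 and 2407 genes passed an adjusted p of 0.05. Without DMSO mouse 1 the median of the 9 genes was 1.23, and without DMSO mouse 2 it was 0.04.

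In S.C. against I.P. mice, 8 of 9 log2 fold changes were positive, between -0.01 for Cxcl10 (SE 0.60) and 1.84 for Iigp1 (SE 1.18). Their median was 0.88, compared with 0.02 over 12206 genes. These groups share their mice with the comparisons above, so the 3 sets of values are not independent. By edgeR's quasi-likelihood test, 0 of 9 had an adjusted p under 0.05 (range 0.606 to 0.998), 0 of 9 an unadjusted P under 0.05 and 0 of 9 were DEGs. Over all genes tested the shares were 0%, 8.59% and 7.05%, with 1049 genes at an unadjusted P under 0.05. DESeq2 gave 234 genes with an adjusted p under 0.05, none of them a member, and Gbp3 as a DEG. Gbp3 had 81.0 ± 56.5 CPM (SD, n = 2) by S.C. and 32.0 ± 20.8 CPM (SD, n = 4) by I.P. injection, a log2 fold change of 1.36 (SE 0.63, edgeR unadjusted P = 0.0619, adjusted p = 0.606). The groups overlapped for all 9 genes, while 18.5% of genes tested showed no overlap. Without I.P. mouse 3, 5 of 9 members (Gbp2, Gbp3, Igtp, Iigp1 and Cxcl9) met the DEG criterion, compared with 677 of 12057 genes tested. The median of the members was then 1.57. Without S.C. mouse 1 it was 1.27, and without S.C. mouse 2 it was 0.39.

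**Figure D3:**
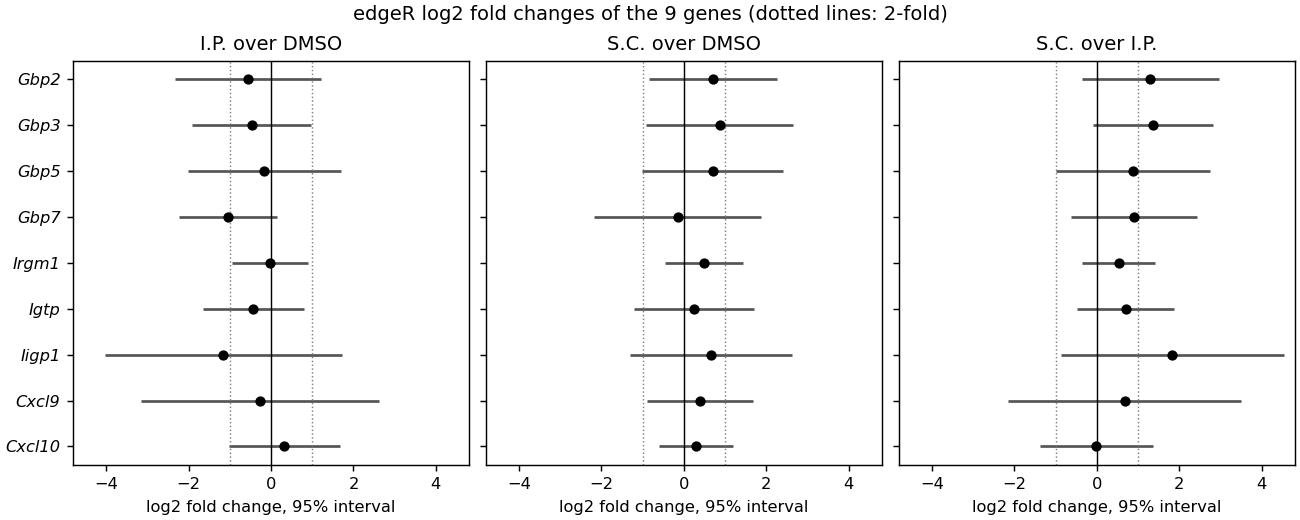
Points are edgeR log2 fold changes (x axis) of the 9 genes (y axis) and lines their 95% intervals, for I.P. over DMSO, S.C. over DMSO and S.C. over I.P. mice, with dotted lines at a 2-fold change. Every interval crosses 0, and the widest are those of Iigp1 and Cxcl9 in the comparisons with I.P. mice.

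The members varied together from mouse to mouse. Each gene's log2 CPM was scaled to a mean of 0 and an SD of 1 over the 8 mice and averaged over the 9 genes. This mean was 1.02 in S.C. mouse 2, 0.98 in I.P. mouse 3, 0.78 in DMSO mouse 1 and 0.26 in S.C. mouse 1. It was -0.45 in DMSO mouse 2, -0.54 in I.P. mouse 4, -0.69 in I.P. mouse 1 and -1.34 in I.P. mouse 2. The upper 3 places held 1 mouse of each group. I.P. mouse 3 was among the 3 highest mice for 9 of 9 genes, DMSO mouse 1 for 8 and S.C. mouse 2 for 8, and I.P. mouse 2 was among the 3 lowest for 9 of 9.

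Over the 36 pairs of members, Pearson's r across the 8 mice had a median of 0.75. It ranged from 0.36 for Gbp7 and Cxcl10 to 0.96 for Iigp1 and Cxcl9, with 16 pairs over 0.8. The points share their libraries and groups, and these values are a description. Among 9316 other genes whose mean reached 5 CPM, the 5 most like the mean of the members were Ly6e (r = 0.99), Ifi47 (0.98), Gbp6 (0.98), Batf2 (0.98) and Slc28a2 (0.97). In all, 24 genes had r over 0.9 and 0 had r under -0.9. Ly6e, which encodes a cell-surface protein induced by interferons, had 530.1 and 217 CPM in the DMSO mice. I.P. mice 1 to 4 had 142, 90.0, 617 and 170 CPM in the I.P. mice, and 453 and 609 CPM in the S.C. mice, so the same 3 mice were highest.

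The signalling genes upstream were measured in the same libraries. Ifng had 68 reads (4.63 CPM) in DMSO mouse 1, 9 reads in I.P. mouse 3 and 0 in the other 6 mice, which allows up to 0.217 CPM in any of these. The receptor genes were even, with Ifngr1 between 164 and 281 CPM and Ifngr2 between 138 and 200.4 CPM. Jak1 ranged from 104 to 251 CPM, Jak2 from 17.5 to 38.7 CPM, Irf8 from 167 to 250.4 CPM, and Ptpn2, a phosphatase that restrains the pathway, from 39.8 to 67.9 CPM. Of the 10 signalling genes tested, 0 passed an unadjusted P of 0.05 in I.P. against DMSO mice or in S.C. against I.P. mice. In S.C. against DMSO mice 2 passed it, compared with 5.41% of all genes. Irf1 had a log2 fold change of 1.39 (SE 0.52, edgeR adjusted p = 0.886), with 86.5 and 59.5 CPM in DMSO, 107 and 275 CPM in S.C., and 125, 35.5, 151 and 44.9 CPM in I.P. mice. Socs3, a feedback inhibitor of cytokine receptors, had a log2 fold change of 1.82 (SE 0.36, edgeR adjusted p = 0.747). Its levels were 30.8 and 25.3 CPM in DMSO, 82.0 and 116 CPM in S.C., and 151, 20.6, 42.9 and 27.8 CPM in I.P. mice. I.P. mouse 1 thus had the highest Socs3 value. Socs1, the inhibitor of IFNγ signalling, lay between 2.32 and 22.8 CPM with no P under 0.05.

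Other genes of both GTPase families were measured too. Of the other GBP genes, 6 were tested against DMSO in I.P. mice with 0 positive log2 fold changes and a median of -0.71, and 5 in S.C. mice with 5 positive and a median of 0.97. None had a P under 0.05 in these comparisons. In S.C. against I.P. mice 1 of 5 passed (8.59% of all genes did), Gbp8, with a log2 fold change of 1.62 (SE 0.49, edgeR adjusted p = 0.398). Of the 8 other IRG genes, 0 were positive in I.P. against DMSO mice (median -0.59) and 5 in S.C. against DMSO mice (median 0.26), with no P under 0.05. Tgtp2 was the 1 of 8 that passed in S.C. against I.P. mice, at 2.0 on the log2 scale (SE 0.80, edgeR adjusted p = 0.543). It had 181 and 25.2 CPM in DMSO, 11.6, 13, 102 and 22.1 CPM in I.P. and 153 and 140 CPM in S.C. mice, so both S.C. mice lay above all I.P. mice but below DMSO mouse 1.

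Cxcl11, the other ligand of CXCR3, had 1.91 and 2.53 CPM (29 and 35 reads) in the S.C. mice, above the other 6 mice, which lay between 0.0600 and 1.40 CPM, with no P under 0.05 in edgeR's test. Cxcr3 itself had 14.6 CPM in S.C. mouse 1 and between 3.06 and 3.98 CPM in the other 7 mice. Of 25 other IFNγ-induced genes tested, 1 passed a P of 0.05 against DMSO for each route, a share close to the 3.43% (I.P.) and 5.41% (S.C.) of all genes tested. It was Il18bp, an IL-18 antagonist, for both. Its log2 fold changes were 1.31 (SE 0.57, edgeR adjusted p = 0.980) for I.P. and 1.72 (SE 0.51, edgeR adjusted p = 0.747) for S.C. mice. In S.C. against I.P. mice 5 of 25 passed, all positive, compared with 8.59% of all genes, and all 5 belong to MHC class II presentation. Cd74, the invariant chain, changed by 2.75 (SE 0.61, edgeR adjusted p = 0.273), H2-Ab1 by 2.61 (SE 0.62, edgeR adjusted p = 0.277) and Ciita, the class II transactivator, by 2.79 (SE 0.83, edgeR adjusted p = 0.396) on the log2 scale. H2-Aa (2.22) and H2-Eb1 (2.21) complete the 5 and are named after their values were seen. Cd74 had 6072 and 4002 CPM in S.C. mice, between 255 and 1619 CPM in I.P. mice, and 3865 and 766 CPM in DMSO mice, so DMSO mouse 1 lay near the S.C. mice.

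**Figure D4:**
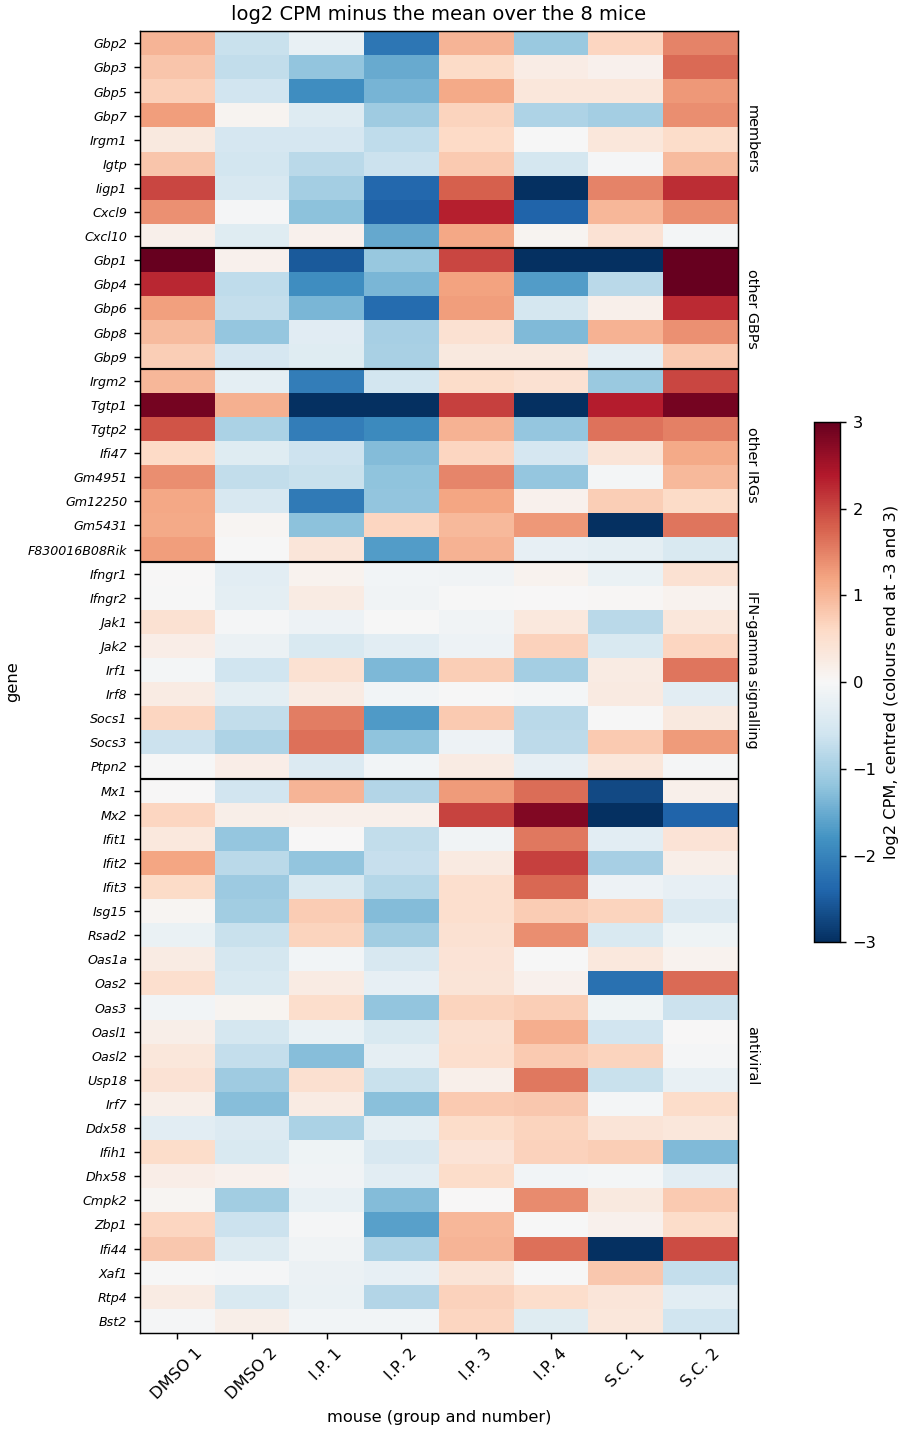
Colours give log2 CPM minus the mean over the 8 mice for the members and for other GBP, IRG, IFNγ signalling and antiviral genes whose mean reached 1 CPM (rows), in each mouse (columns). DMSO mouse 1, I.P. mouse 3 and S.C. mouse 2 are red for most members, whereas I.P. mouse 4 is red for most antiviral genes and for none of Gbp2, Gbp7, Igtp, Iigp1 and Cxcl9. For Gbp3, Gbp5 and, slightly, Cxcl10, I.P. mouse 4 lies above the mean, and for Irgm1 it is close to the mean.

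Genes of the type I interferon (antiviral) response were ordered in part differently among the mice. The mean log2 CPM of 23 antiviral genes was highest in I.P. mouse 4 (5.90), followed by I.P. mouse 3 (5.55), DMSO mouse 1 (5.25), S.C. mouse 2 (4.94) and I.P. mouse 1 (4.92). S.C. mouse 1 (4.48), DMSO mouse 2 (4.41) and I.P. mouse 2 (4.26) were lowest. For the members too, I.P. mouse 3 and DMSO mouse 1 were in the upper 3 places and I.P. mouse 2 was lowest. I.P. mouse 4 had the highest level of 14 of the 23 antiviral genes and of 0 of the 9 members, and its mean log2 CPM of the members, 4.56, compared with 6.66 in S.C. mouse 2. In I.P. against DMSO mice 21 of 23 antiviral genes had a positive log2 fold change (median 0.41), whereas 1 of 9 members did. Of all genes tested there, 6306 of 12174 were positive. None of the 23 had a P under 0.05 there. In S.C. against DMSO mice 13 of 23 were positive (median 0.13), and in S.C. against I.P. mice 8 of 23 (median -0.12). Mx2, an antiviral GTPase, was the 1 gene of the list with a P under 0.05 in the S.C. comparisons (edgeR adjusted p = 0.846 against DMSO and 0.346 against I.P. mice). It had 31 and 26 reads in DMSO, 23, 24, 101 and 161 reads in I.P., and 0 and 2 reads in S.C. mice, and with so few reads its fold change is not given. The difference between the lists was not tested.

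**Figure D5:**
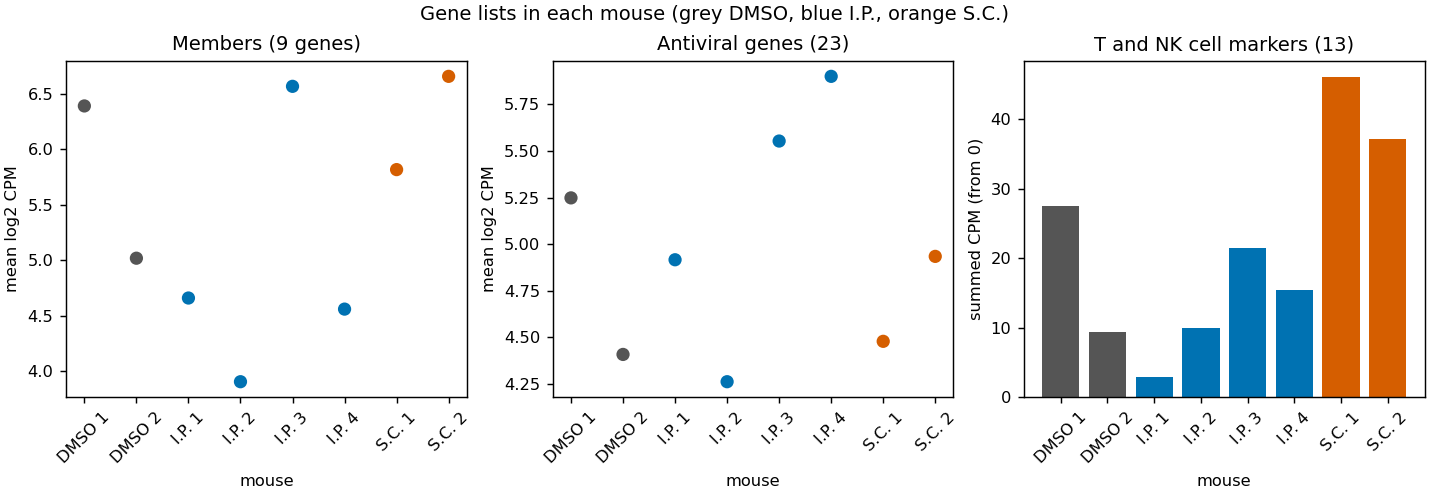
The mean log2 CPM of the 9 members (left) and of 23 antiviral genes (middle) and the summed CPM of 13 T and NK cell markers (right) are plotted for each mouse, grey for DMSO, blue for I.P. and orange for S.C. I.P. mouse 4 is highest for the antiviral genes at 5.90 but at 4.56 for the members, and the T and NK cell markers reach 46.1 CPM in S.C. mouse 1.

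Transcripts of other cells moved with some of these values. Prf1, which encodes perforin of cytotoxic T and NK cells, had 72 reads in DMSO mouse 1, 24 in I.P. mouse 3, 82 in S.C. mouse 1 and 0 in the other 5 mice. Gzmb, a granzyme of the same cells, had 22, 183 and 87 reads in these 3 mice and at most 1 read in the others. Both are named after their values were seen. DMSO mouse 1 and I.P. mouse 3, the highest mice of their groups for the members, thus had them. S.C. mouse 2, the highest of all, had 0 and 1 read of these, but 157 reads of Nkg7 and 45 of Cd3g, the most of any mouse, and 95 of Gzma. Other markers of the list were ordered otherwise. Cd4, the marker with the highest mean CPM, had 131 and 126 reads in DMSO, 17, 141, 56 and 183 in I.P., and 1 and 161 in S.C. mice. Klrb1c had 0 reads in DMSO mouse 1, 12 in I.P. mouse 3 and 36 in I.P. mouse 4. For Gzma, DMSO mouse 1 had 2 reads and I.P. mouse 3 had 0. Of the 13 T and NK cell markers, between 6 and 12 were detected per mouse, and Cd3e was at 0 in 3 of the 4 I.P. mice. In S.C. against DMSO mice 1 of 8 markers tested passed a P of 0.05 in edgeR's test. In S.C. against I.P. mice 3 of 9 did, all positive, and in I.P. against DMSO mice 0 of 7. Of all genes, 5.41%, 8.59% and 3.43% passed. The 1 of 8 was Gzma, with 2 and 0 reads in DMSO and 222 and 95 reads in S.C. mice. Because Gzma passed the filter on low counts only through the S.C. mice, its P is no test of the share of these cells. Neutrophil markers summed to between 129.8 and 170 CPM in DMSO, 76.6 and 136 CPM in I.P., and 258 and 415 CPM in S.C. mice. In each S.C. comparison 5 of 8 passed. Against DMSO these included Camp and Ltf, with 5 and 0 reads each in DMSO mice, which likewise passed the filter only through the S.C. mice. The count of 5 is thus no test of the share of neutrophils. Dendritic cell markers, from cells that also express MHC class II genes, summed to 18.8 and 7.22 CPM in DMSO, between 5.31 and 14.3 CPM in I.P., and 42.6 and 15.7 CPM in S.C. mice. Of 4 tested, 1 passed in S.C. against I.P. and 0 in S.C. against DMSO mice, and Flt3 was near 0 in all. Melanoma markers were highest in S.C. mouse 1 and, with 1719 CPM, in I.P. mouse 4. The part of these other cells in the levels of the members and of the MHC class II genes was not tested.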

How the data were processed

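RNA-seq counts of sorted TAMs from 8 mice were used. The authors deposited counts per gene symbol as whole numbers without normalization, made from reads aligned to mm10. The study's methods name bowtie2 and RSEM, whereas the submitters' processing notes name TopHat2 and edgeR. Mice were grouped by the names in their labels (DMSO, IP and IS), of which IP and IS name the route. The 9 members and the gene lists were chosen with earlier results of these data known.

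Tests used edgeR 4.0.16 and limma 3.58.1 under R 4.3.3. Genes were kept by filterByExpr (minimum count 10, minimum total count 15), scaled by TMM, and each pair of groups was compared in a fit of its own by edgeR's quasi-likelihood test (two-sided), with Benjamini-Hochberg adjustment over all genes tested. The SE was taken as the log2 fold change over the root of F, and log2 CPM used a prior count of 2. The procedure was tested on simulated data. Depth was 14127506 to 17577466 counts, and the members had between 34 and 3597 reads per library.

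The genes named are the 9 members, the signalling genes with Cxcr3 and Cxcl11, from other lists at most the 3 genes of smallest P among those under 0.05 per comparison, the 5 genes most like the members, and markers. Alternatives were no filter, RLE size factors, 1 CPM in 2 samples, scaling by library size, the likelihood ratio test, DESeq2 1.42.0, all 3 groups in 1 fit, a block for the mouse number, and leaving out each mouse. Chosen after seeing the data were a crossed block and I.P. mice 1 and 2 alone. Positions and exon lengths are from GENCODE vM21, promoters from RefSeq (GRCm38.p6). Gbp1 in the table is Gbp2b in GENCODE. The other experiments of the study were not analysed here, and values of some genes of the lists are not reported here.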

Additional observations from a re-analysis of the deposited data

How the results depend on the processing

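Under the alternatives that kept all mice and used no block, the 9 genes kept their directions in every comparison, and none had an adjusted p under 0.05. The number of members meeting the DEG criterion, 0 in each comparison, became 1 in I.P. against DMSO mice with no filter or DESeq2 (Gbp7), and 1 in S.C. against I.P. mice with no filter, the likelihood ratio test or DESeq2 (Gbp3). Over all genes, 364 (no filter) and 335 (DESeq2) met it in I.P. against DMSO mice. For S.C. against I.P. mice, 1173 (no filter), 1101 (likelihood ratio test) and 1017 (DESeq2) did. Deviations of same-numbered mice from their group means had correlations from -0.129 to 0.0719. In groups of 2 mice the deviations mirror each other, so these values cannot decide whether the mouse number marks a pair. With the replicate block, which rests on I.P. mice 1 and 2, 6 members met the criterion in I.P. against DMSO mice, with Cxcl10 at -0.61. Of all genes tested there, 330 of 12174 met it. In S.C. against I.P. mice the block gave 7 members (391 of 12206 genes tested), a median of 2.27 and Cxcl10 at 0.91. For S.C. against DMSO mice it gave 0 members (429 of 11680 genes tested) and a median of 0.54. I.P. mice 1 and 2 alone, without a block, gave 5 members (313 of 11817 genes tested) and Cxcl10 at -0.40. The crossed block for S.C. against DMSO mice gave 0 members, with 475 DEGs over all genes.

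Leaving out 1 mouse gave, in I.P. against DMSO mice, 0 to 3 members meeting the criterion and a median log2 fold change of -0.97 to 0.53. The count of 3 came without I.P. mouse 3, when 361 of 12051 genes tested met the criterion. Ranges were -0.21 to 0.63 for Cxcl10, -2.76 to 0.59 for Cxcl9, -1.38 to 0.53 for Gbp2, -1.06 to 0.53 for Gbp3, -0.89 to 0.64 for Gbp5, -0.97 to 0.42 for Igtp, -3.23 to 0.58 for Iigp1 and -0.37 to 0.43 for Irgm1. Gbp7 alone kept its direction there, with -1.57 to -0.33. In S.C. against DMSO mice each such fit left 1 mouse in a group, so counts of members meeting the criterion are not given. The median was 0.04 to 1.23. Ranges were -0.16 to 1.23 for Cxcl9, -0.13 to 1.87 for Gbp3, -1.84 to 0.59 for Gbp7, -0.35 to 1.10 for Igtp and -0.12 to 2.39 for Iigp1. Gbp2, Gbp5, Irgm1 and Cxcl10 stayed positive in that comparison. In S.C. against I.P. mice leaving out 1 mouse gave 0 to 5 members and a median of 0.39 to 1.57. Ranges were -0.32 to 0.48 for Cxcl10 and -0.75 to 1.65 for Gbp7, and the other members stayed positive. The count of 5 came without I.P. mouse 3, when 677 of 12057 genes tested met the criterion. When only library size was scaled, the median over all genes in S.C. against DMSO mice was -0.13 and that of the members 0.34. The cause of these changes was not tested.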
